A study of Mus musculus with 20 samples.

Results

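The 8 genes described here encode small proteins that hold back a protein kinase or a protein phosphatase: Ppp1r1a, Ppp1r1b, Ppp1r1c, Pkia, Pkib, Pkig, Camk2n1 and Camk2n2. They are 8 of the 55487 genes in the count table and were chosen by name from 3 inhibitor families, with results of these data already known. The growth cone to soma difference of some of them was among those results, so that difference is given below as a description with no test. The test of genotype was fitted on all genes.

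The libraries hold RNA of subcerebral projection neurons, which send axons from the cortex down to the brainstem and spinal cord, in mice 1 day after birth. Of the 20 libraries, 10 are of somata, with cortex as the source, and 10 of growth cones, the motile axon tips, with brainstem and spinal cord as the source. The genotype was wild type (WT) or knockout (KO) for Bcl11b, a transcription factor gene, and each of the 4 groups had 5 libraries. The labels name no second allele or agent, no Cre line, no number of animals per library and no method of purification, and they allow less input RNA for growth cone libraries than for soma libraries. Libraries are named below by the experiment number in their title: 7 to 11 for growth cones of both genotypes, 12, 14, 22, 25 and 26 for WT somata and 14, 15, 22, 25 and 26 for KO somata. Compartment, tissue of origin, experiment number and the input RNA allowed therefore cannot be told apart.

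Depth ran from 18962308 to 36059112 counts in WT somata and from 35243688 to 51205154 in KO somata, and from 26382991 to 29323028 (WT) and 21657575 to 27723067 (KO) in growth cones. Bcl11b RNA was at 655 ± 122 CPM (counts scaled to a common library total; mean ± SD, n = 5) in WT somata and at 1082 ± 53.6 in KO somata, with no overlap of libraries, so the soma counts go against the genotype label. In growth cones it was at 108 ± 20.1 CPM in WT and 108 ± 35.3 in KO libraries. These counts do not show which part of the gene was deleted, and "KO" below means the library labelled KO. The summed level of 10 markers of subcerebral projection neurons (such as Fezf2 and Ldb2) was 2075 ± 129 CPM in WT somata, 1998 ± 40.6 in KO somata, 884 ± 96.4 in WT growth cones and 838 ± 117 in KO growth cones.

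The 3 families act on enzymes that meet in one signalling network. Cyclic AMP (cAMP) releases the catalytic subunits of protein kinase A (PKA), and the PKI proteins encoded by Pkia, Pkib and Pkig bind those subunits as a pseudosubstrate and can carry them out of the nucleus. Active PKA phosphorylates inhibitor-1 (Ppp1r1a) and its relative DARPP-32 (Ppp1r1b), which then block protein phosphatase 1 (PP1), while calcineurin removes that phosphate. Calcium and calmodulin activate the kinase CaMKII, and Camk2n1 and Camk2n2 encode peptides that bind and inhibit the active form. In growth cones, cAMP and calcium signals are known to steer the turning and advance of the axon.

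The opening coding bases of the 3 PPP1R1 genes are shown because the capitals mark what makes these proteins switchable: the codons for arginine, arginine, any residue, threonine and proline, whose threonine PKA phosphorylates. They are the first 180 coding bases of the principal transcript in GENCODE M21 (mouse build GRCm38), 5′ to 3′.
Ppp1r1a: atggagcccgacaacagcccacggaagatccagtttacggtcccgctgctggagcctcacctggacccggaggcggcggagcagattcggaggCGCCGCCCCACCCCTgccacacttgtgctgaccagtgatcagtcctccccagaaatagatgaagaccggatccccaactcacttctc
Ppp1r1b: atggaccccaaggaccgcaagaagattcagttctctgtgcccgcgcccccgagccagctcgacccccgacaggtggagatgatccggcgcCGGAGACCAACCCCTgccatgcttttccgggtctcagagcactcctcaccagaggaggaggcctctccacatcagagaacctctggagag
Ppp1r1c: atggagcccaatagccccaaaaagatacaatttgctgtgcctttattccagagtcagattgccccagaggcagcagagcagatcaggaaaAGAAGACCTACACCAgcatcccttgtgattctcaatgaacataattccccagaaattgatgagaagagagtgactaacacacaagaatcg
The capitals cover codons 32 to 36 of Ppp1r1a and 31 to 35 of the other 2 genes. The coding sequence of Ppp1r1a lies at chr15:103530947-103537878 on the minus strand, that of Ppp1r1b at chr11:98349094-98357067 and that of Ppp1r1c at chr2:79708174-79808387, both on the plus strand. The encoded proteins have 171, 194 and 108 residues, and Ppp1r1a and Ppp1r1b share 33.5% of 167 aligned residues.

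Ppp1r1a was the most abundant of the 8 RNAs in growth cones. In WT somata it was at 161 CPM in library 12, 117 in 14, 107 in 22, 125 in 25 and 119 in 26, and in KO somata at 99.8 in 14, 121 in 15, 119 in 22, 111 in 25 and 114 in 26. In WT growth cones it was at 2350 CPM in library 7, 2894 in 8, 2627 in 9, 2259 in 10 and 2424 in 11, and in KO growth cones at 2660 in 7, 2224 in 8, 2693 in 9, 1718 in 10 and 2770 in 11. Every growth cone library lay above every soma library in both genotypes. The fitted log2 fold change of growth cones over somata was 4.18 ± 0.15 (SE) in WT, which is 18.1-fold, and 4.34 ± 0.20 in KO, which is 20.2-fold.

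Ppp1r1b, best known as the dopamine-responsive PP1 inhibitor of striatal neurons, differed far less between compartments. Its level was 28.2 CPM in library 12, 65.0 in 14, 34.3 in 22, 51.7 in 25 and 38.5 in 26 of WT somata, and 44.2 in 14, 19.2 in 15, 29.5 in 22, 63.9 in 25 and 21.9 in 26 of KO somata. In WT growth cones it was 44.6 CPM in library 7, 75.5 in 8, 68.2 in 9, 90.1 in 10 and 142 in 11, and in KO growth cones 49.1 in 7, 92.9 in 8, 61.0 in 9, 84.5 in 10 and 98.1 in 11. Growth cone and soma libraries overlapped in both genotypes, and the log2 fold change was 0.81 ± 0.32 in WT and 1.01 ± 0.34 in KO. The gene overlaps 1700003D09Rik on the opposite strand by 460 exonic bases, a gene that reached at most 0.0288 CPM in any library.

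The summed level of 6 markers of striatal projection neurons (Drd1, Drd2, Adora2a, Rgs9, Penk and Tac1) ran partly along with Ppp1r1b among somata. In WT somata that sum was 71.0 CPM in library 25, 58.9 in 14, 57.2 in 22, 56.9 in 26 and 32.1 in 12. Libraries 14 and 25 were the highest and library 12 the lowest in both measures, although the sum in library 14 was close to that in 22 and 26. In KO somata libraries 14 and 25 were again the highest in both, with 105 and 96.6 CPM of the marker sum, but library 26, low for Ppp1r1b, had a sum of 91.6 CPM. Among WT growth cones the order ran the other way at the ends: library 11, highest for Ppp1r1b, had the lowest sum, 101 CPM, and library 7, lowest for Ppp1r1b, the highest, 189 CPM. KO growth cones ran along with Ppp1r1b instead, with the highest sums in libraries 11 (187 CPM) and 8 (173 CPM), the highest for Ppp1r1b, although library 7, lowest for Ppp1r1b, had 134 CPM and library 9 the lowest sum, 108. The part of striatal RNA in the Ppp1r1b values was not tested.

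Ppp1r1c, the shortest member of its family, was at or near 0 in most libraries. It had 0 counts in 4 of 5 WT soma libraries and 6 in library 26, and 0 counts in 4 of 5 KO soma libraries and 1 in library 22. In WT growth cones it had 125 counts in library 7, 322 in 8, 104 in 9, 0 in 10 and 1 in 11, and in KO growth cones 0 in 7, 8 and 10, 60 in 9 and 236 in 11. The growth cone libraries were thus split between libraries at or near 0 and libraries with up to 322 counts (WT) or 236 counts (KO), and experiment 11 was near 0 in WT and highest in KO. The filter on low counts kept this gene out of the soma fit and of both compartment fits, so 7 members were fitted there. A count of 0 allows up to 3 counts, and this covers counting error only.

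**Figure D1:**
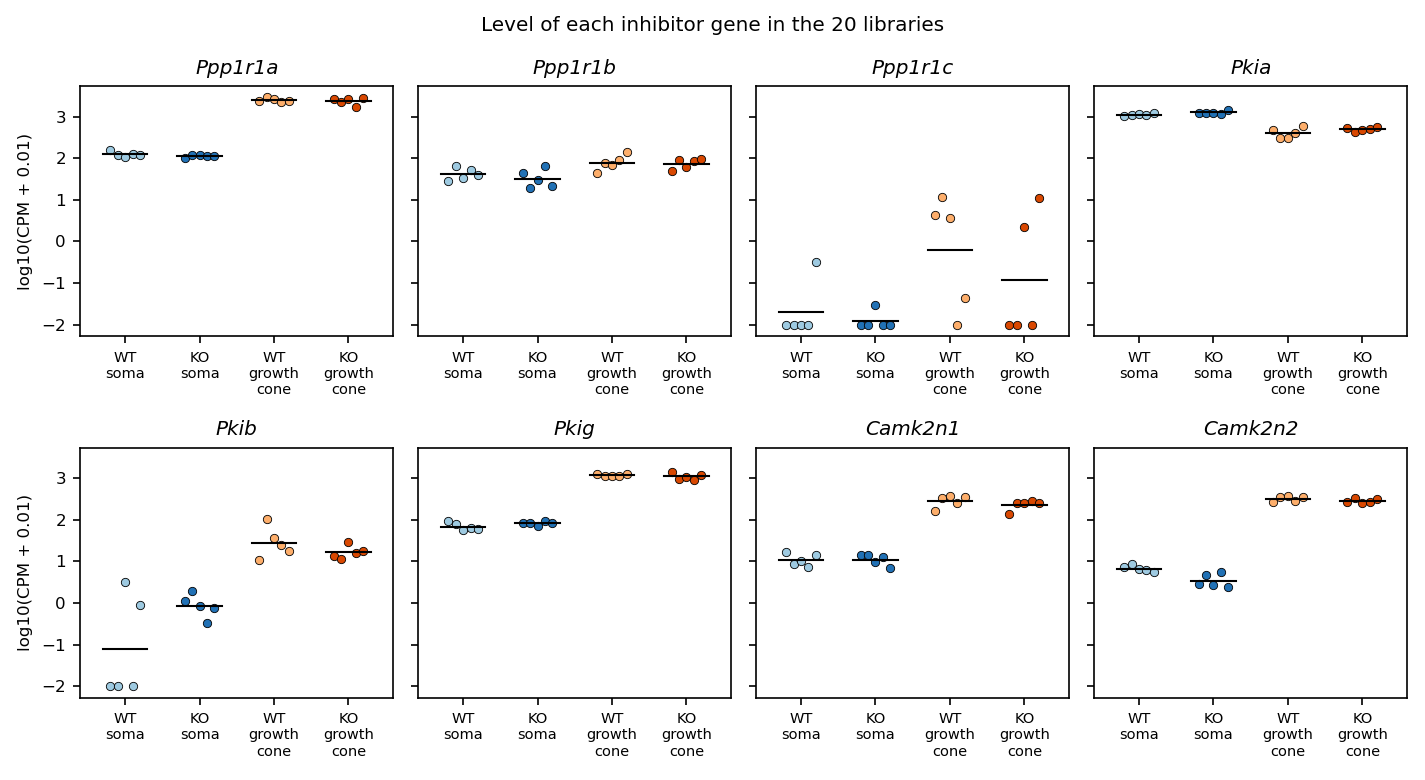
Each panel shows 1 gene in all 20 libraries, with the level as log10 of CPM + 0.01 on the vertical axis, 1 point per library and a line at the mean of the log values of the 5 libraries. Ppp1r1a, Pkib, Pkig, Camk2n1 and Camk2n2 sit higher in all growth cone libraries than in all soma libraries. Pkia sits lower, and Ppp1r1b and Ppp1r1c overlap.

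The 3 PKI genes are shown with their whole coding sequence because 2 of them swap places between compartments although they encode the same inhibitory core. The capitals mark the codons for arginine, arginine, asparagine and alanine, the pseudosubstrate core that occupies the site of PKA where a substrate would hold a serine or threonine.
Pkia: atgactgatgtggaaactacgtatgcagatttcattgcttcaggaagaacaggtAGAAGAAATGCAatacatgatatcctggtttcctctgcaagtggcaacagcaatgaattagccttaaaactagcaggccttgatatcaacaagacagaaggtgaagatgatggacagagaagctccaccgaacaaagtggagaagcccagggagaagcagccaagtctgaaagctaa
Pkib: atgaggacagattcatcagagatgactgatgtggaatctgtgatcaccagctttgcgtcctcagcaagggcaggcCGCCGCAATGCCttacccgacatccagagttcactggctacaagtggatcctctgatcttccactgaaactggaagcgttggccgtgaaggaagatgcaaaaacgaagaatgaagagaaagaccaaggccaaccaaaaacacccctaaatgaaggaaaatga
Pkig: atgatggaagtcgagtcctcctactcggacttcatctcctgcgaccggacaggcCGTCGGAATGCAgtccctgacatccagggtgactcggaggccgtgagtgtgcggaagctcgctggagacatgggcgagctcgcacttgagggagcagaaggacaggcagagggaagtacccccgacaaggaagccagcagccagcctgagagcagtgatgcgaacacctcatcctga
The core was found once in each gene, at codons 19 to 22 in Pkia and Pkig and 26 to 29 in Pkib. Over their whole length, the core included, Pkia and Pkig share 35.5% of 76 aligned residues and no run of identical coding bases longer than 8. The coding sequences lie on the plus strand at chr3:7437365-7442087 (Pkia), chr10:57728098-57736354 (Pkib) and chr2:163721151-163725533 (Pkig).

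Pkia was the most abundant of the 8 RNAs in somata and was lower in growth cones. Its level was 1048 CPM in library 12, 1096 in 14, 1168 in 22, 1064 in 25 and 1186 in 26 of WT somata, and 1233 in 14, 1236 in 15, 1236 in 22, 1182 in 25 and 1408 in 26 of KO somata. It was 471 CPM in library 7, 302 in 8, 303 in 9, 413 in 10 and 610 in 11 of WT growth cones, and 545 in 7, 422 in 8, 487 in 9, 498 in 10 and 573 in 11 of KO growth cones. No growth cone library reached the lowest soma library. The log2 fold change of growth cones over somata was -1.55 ± 0.19 in WT, which is 2.93-fold lower, and -1.41 ± 0.14 in KO, which is 2.65-fold lower.

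Pkig moved the other way. Its level was 93.2 CPM in library 12, 77.0 in 14, 55.2 in 22, 63.4 in 25 and 58.7 in 26 of WT somata, and 81.2 in 14, 84.0 in 15, 69.9 in 22, 91.3 in 25 and 85.4 in 26 of KO somata. It was 1254 CPM in library 7, 1147 in 8, 1153 in 9, 1108 in 10 and 1245 in 11 of WT growth cones, and 1417 in 7, 977 in 8, 1080 in 9, 878 in 10 and 1185 in 11 of KO growth cones. The compartments did not overlap, and the log2 fold change was 3.95 ± 0.16 in WT and 3.67 ± 0.19 in KO.

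Pkib was low in somata and uneven in growth cones. It had 0 CPM in WT soma libraries 12, 14 and 25, 3.14 in 22 and 0.897 in 26, and between 0.329 and 1.89 CPM in KO somata. In WT growth cones it was 11.02 CPM in library 7, 104 in 8, 36.2 in 9, 24.7 in 10 and 17.3 in 11, and in KO growth cones 13.3 in 7, 11.5 in 8, 29.4 in 9, 15.8 in 10 and 17.9 in 11. Library 8 of WT growth cones stood well above the others of its group, and all growth cone libraries lay above all soma libraries. The log2 fold change of growth cones over somata was 5.42 ± 1.53 in WT and 4.08 ± 0.65 in KO. The WT value was 7.48 ± 1.64 without soma library 22 and 4.59 ± 1.61 without growth cone library 8.

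Per kilobase of exon (RPKM, CPM divided by the gene's summed exon length in the table), Pkia was 299 ± 16.6 and Pkig 17.4 ± 3.92 RPKM in WT somata, against 113 ± 34.6 and 296 ± 16.2 in WT growth cones. KO libraries showed the same exchange, with Pkia at 338 ± 23.2 and Pkig at 20.6 ± 1.98 RPKM in somata and at 136 ± 15.7 and 278 ± 52.0 in growth cones. Pkia thus made up 94.4 ± 1.39% of the summed PKI level in WT somata and 26.9 ± 5.37% in WT growth cones, 94.2 ± 0.649% in KO somata and 33.0 ± 3.17% in KO growth cones. The sum on this scale was 316 ± 13.95 RPKM in WT somata, 359 ± 23.4 in KO somata, 412 ± 45.4 in WT growth cones and 415 ± 63.1 in KO growth cones. Both the shares and the sum depend on the length used. With the length of the principal transcript (3617 bases for Pkia, 1552 for Pkib, 1036 for Pkig) in place of all exons (3721, 11800 and 3990 bases), an alternative chosen after seeing the data, the share of Pkia was 82.0 ± 3.78% in WT somata and 8.97 ± 2.30% in WT growth cones, 81.3 ± 1.80% in KO somata and 11.6 ± 1.48% in KO growth cones. On that scale the sum was 375 ± 11.5 in WT somata, 428 ± 25.2 in KO somata, 1281 ± 79.6 in WT growth cones and 1220 ± 211 in KO growth cones, so the growth cone sums lay well above the soma sums. Which length fits the RNA in these libraries was not tested.

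**Figure D2:**
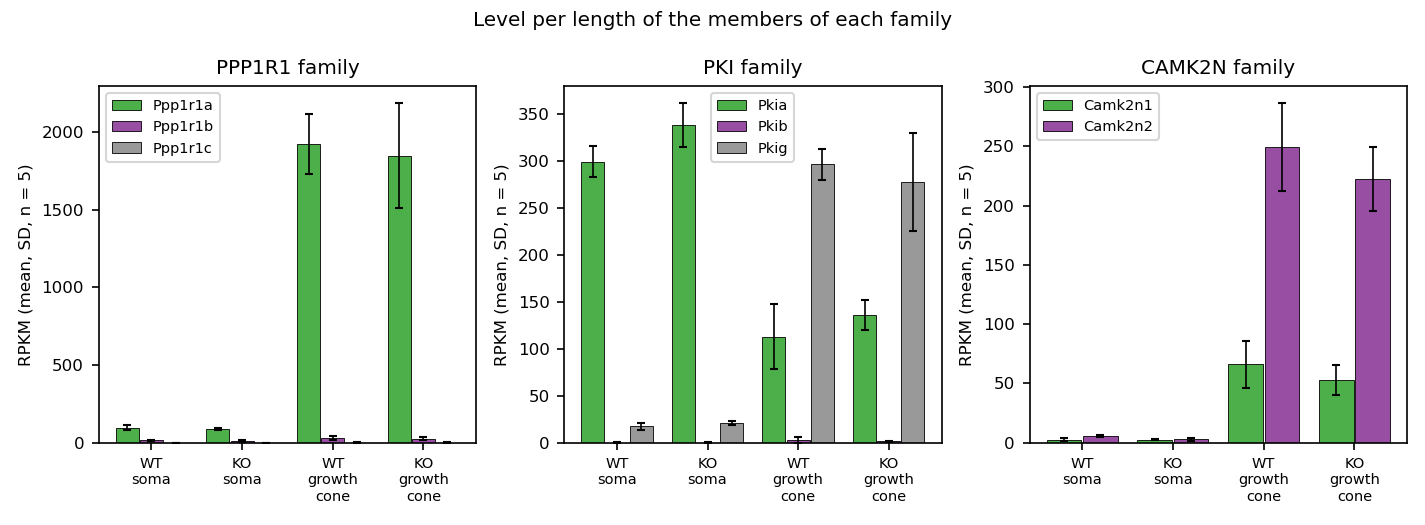
Bars give the mean RPKM of each gene in each group from 0, with the SD of 5 libraries as error bars, in 1 panel per family. Pkia leads its family in somata and Pkig in growth cones, while Ppp1r1a leads the PPP1R1 family in every group. Camk2n2 exceeds Camk2n1 in WT somata and in both growth cone groups, and their ranges overlap in KO somata.

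The coding sequences of the 2 CaMKII inhibitors are shown because these genes had the lowest soma levels of the well-measured members and large growth cone levels. The capitals mark the longest run of residues that both encoded proteins share, 15 residues.
Camk2n1: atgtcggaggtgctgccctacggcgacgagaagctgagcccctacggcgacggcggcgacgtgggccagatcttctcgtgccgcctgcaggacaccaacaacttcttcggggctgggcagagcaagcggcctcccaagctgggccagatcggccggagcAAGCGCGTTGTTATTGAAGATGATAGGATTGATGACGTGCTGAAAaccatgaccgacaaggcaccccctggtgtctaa
Camk2n2: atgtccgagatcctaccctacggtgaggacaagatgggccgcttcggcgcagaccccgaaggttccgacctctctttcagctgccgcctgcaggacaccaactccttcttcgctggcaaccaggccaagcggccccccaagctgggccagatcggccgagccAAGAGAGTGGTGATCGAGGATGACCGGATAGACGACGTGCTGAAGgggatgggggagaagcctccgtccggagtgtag
The run covers codons 54 to 68 of Camk2n1 and 55 to 69 of Camk2n2, and the proteins agree in 67.9% of 78 aligned residues. The coding sequence of Camk2n1 lies at chr4:138455186-138456785 on the plus strand and that of Camk2n2 at chr16:20620176-20621194 on the minus strand. The longest run of coding bases they share is 23.

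Camk2n2 was at 7.22 CPM in library 12, 8.44 in 14, 6.69 in 22, 6.07 in 25 and 5.43 in 26 of WT somata, and at 2.85 in 14, 4.73 in 15, 2.66 in 22, 5.60 in 25 and 2.44 in 26 of KO somata. In WT growth cones it was at 266 CPM in library 7, 344 in 8, 374 in 9, 276 in 10 and 349 in 11, and in KO growth cones at 270 in 7, 332 in 8, 251 in 9, 266 in 10 and 317 in 11. The lowest growth cone library was far above the highest soma library. The log2 fold change of growth cones over somata was 5.43 ± 0.19 in WT, which is 43.1-fold, and 6.20 ± 0.29 in KO, which is 73.5-fold.

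Camk2n1 was at 16.8 CPM in library 12, 8.67 in 14, 10.1 in 22, 7.21 in 25 and 14.6 in 26 of WT somata, and at 14.3 in 14, 13.8 in 15, 9.37 in 22, 12.4 in 25 and 6.72 in 26 of KO somata. In WT growth cones it was at 162 CPM in library 7, 325 in 8, 379 in 9, 247 in 10 and 356 in 11, and in KO growth cones at 136 in 7, 256 in 8, 248 in 9, 279 in 10 and 255 in 11. Experiment 7 was the lowest in both growth cone groups, and still above every soma library. The log2 fold change was 4.54 ± 0.32 in WT and 4.26 ± 0.26 in KO.

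Ordered per length, the RNAs of WT somata ran from Pkia (299 ± 16.6 RPKM) and Ppp1r1a (96.4 ± 15.9) through Pkig (17.4 ± 3.92) and Ppp1r1b (14.9 ± 5.05) to Camk2n2 (5.24 ± 0.889), Camk2n1 (2.58 ± 0.910), Pkib (0.0684 ± 0.115) and Ppp1r1c (0.0109 ± 0.0243). The ranges of Pkig and Ppp1r1b overlapped, as did those of Pkib and Ppp1r1c. WT growth cones began with Ppp1r1a (1922 ± 194 RPKM), followed by Pkig (296 ± 16.2), Camk2n2 (249 ± 37.4), Pkia (113 ± 34.6), Camk2n1 (66.1 ± 19.99), Ppp1r1b (28.7 ± 12.4), Pkib (3.28 ± 3.21) and Ppp1r1c (0.682 ± 0.823). There the ranges of Pkig and Camk2n2, of Pkia and Camk2n1, of Camk2n1 and Ppp1r1b, and of Pkib and Ppp1r1c overlapped. Because the lengths count every annotated exon, levels of Pkib, Pkig and Ppp1r1c may be understated beside the other genes.

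Libraries of 5 members in each genotype lay wholly higher in growth cones and those of 1, Pkia, wholly lower, against 20.3% and 17.3% of all genes tested in WT and 18.6% and 17.5% in KO. The median log2 fold change of the 7 members fitted was 4.18 in WT and 4.08 in KO, beside 0.07 and 0.11 over all genes tested. The members were chosen with this contrast in view, so nothing is read from these counts. For Ppp1r1b, whose compartments overlapped, the difference between the KO and WT fold changes was 0.17 ± 0.47 on the log2 scale (edgeR interaction, adjusted p = 0.9999). Upper-quartile scaling moved the median of all genes from 0.07 to 0.28 in WT and from 0.11 to 0.31 in KO on the log2 scale, a shift smaller than the fold change of any member.

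**Figure D3:**
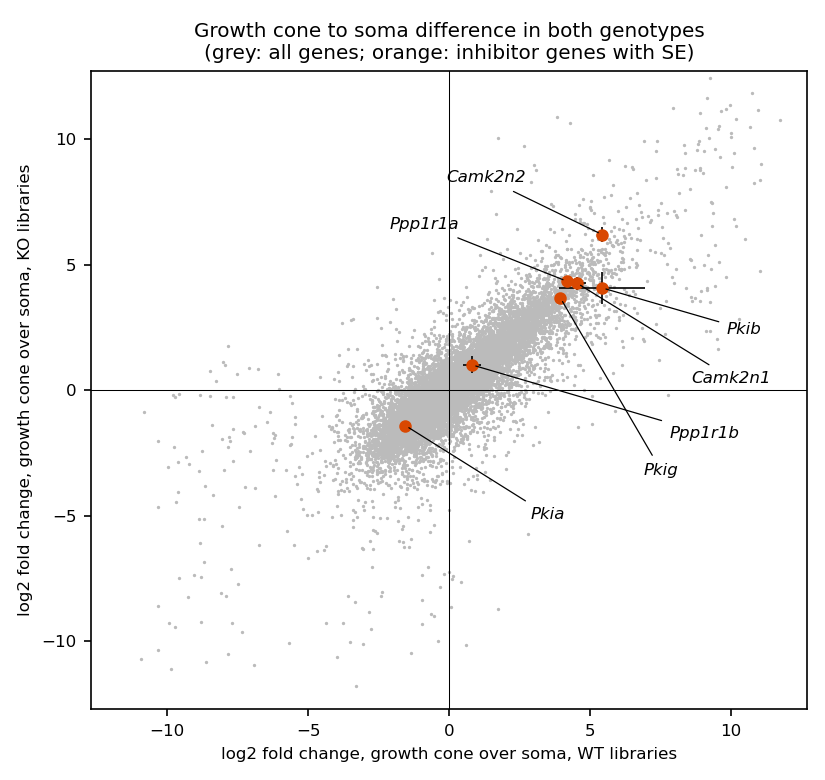
Each grey point is 1 of the 14569 genes tested in both genotypes, placed by its log2 fold change of growth cones over somata in WT (horizontal) and KO libraries (vertical); orange points are the 7 members fitted, with the SE in each direction. Camk2n2 lies at 5.43 and 6.20, Pkia at -1.55 and -1.41, and Ppp1r1b at 0.81 and 1.01.

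Markers of other cells moved with compartment too. The summed level of 7 astrocyte markers ranged from 29.1 to 252 CPM in WT somata and from 114 to 330 in KO somata, against 1763 to 2367 in WT and 1805 to 2488 in KO growth cones, and 6 of 7 were called higher in WT growth cones and 5 of 7 in KO. The 8 markers of the oligodendrocyte lineage summed to 57.7 to 101 CPM in WT and 65.1 to 93.2 in KO somata and to 523 to 2245 in WT and 516 to 1561 in KO growth cones, with 5 of 8 called higher in each genotype. The 10 markers of hindbrain and spinal cord, mostly Hox genes, summed to at most 0.212 CPM in somata and to 87.5 to 166 in WT and 57.9 to 190 in KO growth cones, where Chat was at 0 in WT. The 9 markers of vessels and blood ranged from 0.596 to 65.2 CPM over all somata and from 262 to 615 over all growth cones, and the 6 of choroid plexus and meninges from 1.76 to 12.1 and from 267 to 438. The 9 interneuron markers summed to 116 to 187 CPM in WT somata, 383 to 530 in KO somata, 715 to 887 in WT and 687 to 979 in KO growth cones, with 7 of 8 tested called higher in WT, and 8 of 9 higher and 1 lower in KO. Neuron types of the cortex moved as well: the 8 markers of callosal neurons summed to 217 to 299 CPM in WT and 209 to 318 in KO somata and to 640 to 878 in WT and 644 to 829 in KO growth cones, with 5 of 8 called higher and 1 lower in each genotype. The 7 markers of corticothalamic neurons were lower in sum, 892 to 1177 CPM in WT and 751 to 1055 in KO somata against 309 to 668 and 262 to 569 in growth cones, with 1 called higher and 1 lower in WT and 1 higher and 3 lower in KO. The 6 striatal markers summed to at most 71.0 CPM in WT and 105 in KO somata and to at least 101 in WT and 108 in KO growth cones, with 1 of 5 tested called higher in WT, and 2 of 6 higher and 1 lower in KO. The 7 microglia markers overlapped between compartments, with 4.90 to 120 CPM in somata and 21.3 to 118 in growth cones. What part the RNA of other cells has in the compartment values of the inhibitor genes was not tested. In bulk libraries such as these, fewer cells or growth cones of a type and less RNA in each cannot be told apart.

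The RNAs of the enzymes that the inhibitors act on were at similar or lower summed levels in growth cones. Summed per length, the 3 PP1 catalytic subunits were at 263 ± 33.1 RPKM in WT somata, 258 ± 19.6 in KO somata, 209 ± 47.2 in WT growth cones and 231 ± 47.3 in KO growth cones. The PKA catalytic subunits Prkaca and Prkacb summed to 109 ± 8.12, 114 ± 5.19, 116 ± 19.95 and 115 ± 19.2 RPKM in the same order, and the 4 CaMKII subunits to 132 ± 14.02, 105 ± 13.2, 48.2 ± 13.0 and 49.3 ± 15.8 RPKM. The summed level of the CaMKII inhibitors per CaMKII subunit RNA was 0.0607 ± 0.0162 in library-wise ratios of WT somata (range 0.0449 to 0.0868) and 0.0531 ± 0.0221 in KO somata (0.0319 to 0.0869), against 6.76 ± 1.38 in WT (5.12 to 8.34) and 5.98 ± 1.61 in KO growth cones (3.86 to 7.77). The PPP1R1 genes per PP1 catalytic RNA went from 0.426 ± 0.0494 (WT) and 0.384 ± 0.0246 (KO) in somata to 9.94 ± 3.33 and 8.45 ± 2.34 in growth cones, again with no overlap. The PKI genes per PKA catalytic RNA ran from 2.66 to 3.75 over all soma libraries and from 2.51 to 4.97 over all growth cone libraries, an overlap that rests on the exon lengths. With the principal transcript of every gene the PKI ratio was 2.03 to 2.95 in somata and 5.497 to 12.04 in growth cones, with no overlap. The other ratios stayed apart on that scale too, at most 0.324 in somata and at least 2.98 in growth cones for PPP1R1, and at most 0.0386 and at least 1.65 for CAMK2N. The inhibitors were chosen with the compartment contrast in view, so nothing is read from the separation of these ratios.

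**Figure D4:**
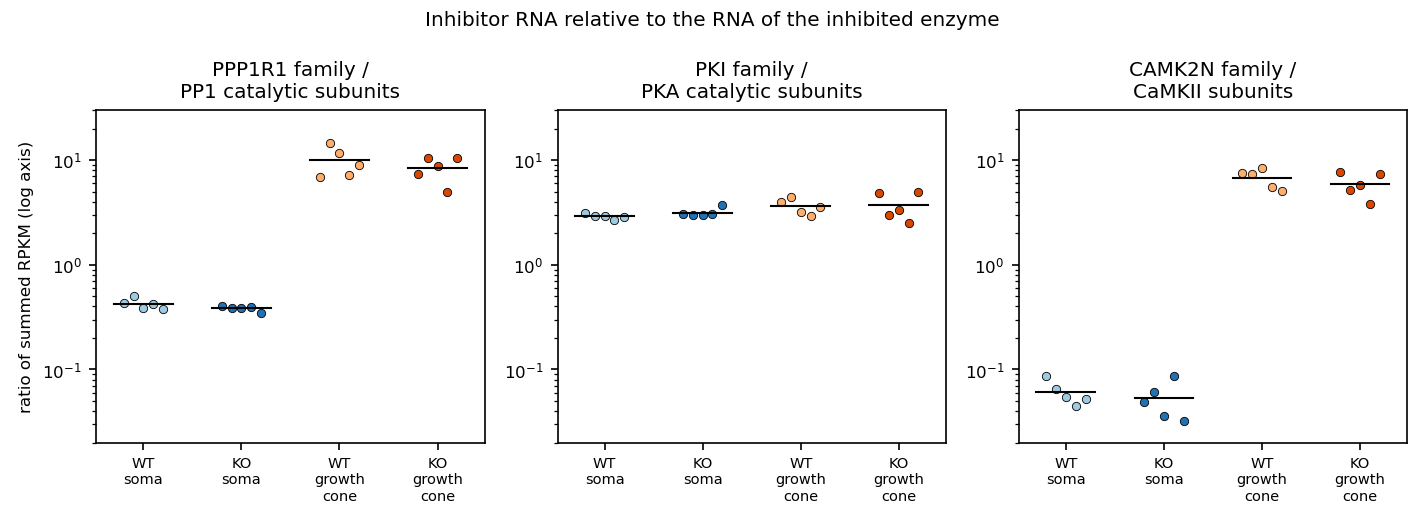
The vertical axis (log scale) gives the summed RPKM of each inhibitor family divided by that of its enzyme's subunits, 1 point per library with a line at the group mean. The PPP1R1 and CAMK2N ratios separate somata (at most 0.503 and 0.0869) from growth cones (at least 5.01 and 3.86), and the PKI ratio overlaps on this scale of summed exon length. With principal-transcript lengths the PKI ratio is at most 2.95 in somata and at least 5.497 in growth cones. The inhibitors were chosen with the compartment contrast in view, so the separation is a description only.

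Within the enzymes, subunits did not move as one. Of the 6 PKA subunit genes, the catalytic Prkaca was called higher in growth cones (log2 fold change 0.46 ± 0.12 in WT, 0.47 ± 0.13 in KO) and the other 5 lower in both genotypes; Prkaca was singled out after its values were seen. The regulatory Prkar1a showed -1.95 ± 0.11 in WT and -2.01 ± 0.20 in KO, and Prkar2b -1.31 ± 0.13 and -1.43 ± 0.19. Of the 4 CaMKII genes, Camk2b fell (-2.18 ± 0.22 in WT and -1.83 ± 0.25 in KO), whereas Camk2d (3.98 ± 0.55 and 3.32 ± 0.40) and Camk2g (2.10 ± 0.27 and 2.46 ± 0.30) rose. Camk2a, the subunit typical of mature forebrain synapses, passed in neither genotype. Of the 3 PP1 catalytic genes, Ppp1ca was called lower in WT (-0.49 ± 0.17), with a KO value of -0.19 ± 0.19 that missed the threshold. Ppp1cb was called lower in KO (-0.64 ± 0.16), with a WT value of -0.42 ± 0.21 that missed it. The interaction of genotype and compartment passed for neither (edgeR adjusted p = 0.9999 for both).

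Other small phosphatase inhibitors were mixed. Of 6 further PP1 inhibitor genes, Ppp1r14b (3.40 ± 0.21 in WT, 3.14 ± 0.22 in KO), Ppp1r11 (1.51 ± 0.20 and 1.61 ± 0.26) and Ppp1r2, which encodes inhibitor-2 (1.36 ± 0.15 and 1.02 ± 0.20), rose in growth cones of both genotypes, and Ppp1r14c fell in WT (-0.69 ± 0.23). Ppp1r14b reached 1304 ± 241 CPM in WT growth cones from 112 ± 27.4 in WT somata. Of 5 genes listed under PP2A inhibitors and relatives, Anp32a (2.17 ± 0.37 and 2.61 ± 0.36) and Ensa (0.66 ± 0.14 and 0.91 ± 0.15) rose in both genotypes. Arpp19 fell in WT (-0.64 ± 0.16). Arpp21, which is like Arpp19 in name but is not known as a PP2A inhibitor, rose in KO (1.03 ± 0.17). Of 6 calcineurin genes, the catalytic Ppp3cb (1.45 ± 0.24 and 1.64 ± 0.20) and the inhibitor Rcan2 (2.97 ± 0.78 and 2.97 ± 0.48) rose in both, and Ppp3r1 fell in WT (-0.60 ± 0.13). Among 14 genes that feed cAMP or CDK5 signals into the network, Cdk5r1 (1.41 ± 0.20 and 1.18 ± 0.19) and Gnas (1.59 ± 0.54 and 1.61 ± 0.36) rose in both genotypes, and the phosphodiesterase Pde4b (-1.56 ± 0.27 and -1.04 ± 0.30) and Pde1a (-0.98 ± 0.35 and -1.23 ± 0.39) fell in both. The rise of Gnas was between low counted levels, 9.14 ± 4.71 CPM in WT and 8.54 ± 1.55 in KO somata. In growth cones it was counted at 30.3 ± 6.58 (WT) and 27.9 ± 7.66 CPM (KO). Overlap of exons with other genes was examined for the 8 members only, so these counts may not give the full level of Gnas. The adenylyl cyclase Adcy2 (1.70 ± 0.36) rose in WT and Adcy3 (-5.47 ± 1.10) fell in WT. In all, 13 of 43 tested genes of these lists were called higher and 14 lower in WT, where 23.1% of all genes tested were called higher and 19.7% lower. In KO 14 of 42 were called higher and 9 lower, against 21.6% and 17.0% of all genes. Of the calls named here, those of Ppp1ca, Ppp1r14c, Pde1a and Gnas in WT and of Prkaca and Pde1a in KO were lost when 1 of several libraries was left out, with edgeR adjusted p up to 0.239 over the alternatives for Ppp1ca.

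Genotype was compared next, within each compartment. No inhibitor gene passed FDR 0.05 between KO and WT somata (0 of 7 tested by edgeR, 1 at an unadjusted p under 0.05, and 0 by DESeq2), where 0.731% of all genes tested did. None passed between KO and WT growth cones either (0 of 8 tested by edgeR, 0 at an unadjusted p under 0.05, and 0 by DESeq2), where 0.00% of all genes did, and 0 of 8 passed the interaction (edgeR, with 1 at an unadjusted p under 0.05, and 0 by DESeq2), where 0.0397% did. The median log2 fold change of the members was -0.03 in somata and -0.13 in growth cones, beside -0.003 and 0.01 over all genes tested. Misses of the threshold do not show that levels were equal, since the standard errors ranged from 0.08 for Pkia to 1.45 for Pkib in somata.

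The member with the lowest p, and the one under an unadjusted 0.05, was Camk2n2 in somata. Its log2 fold change of KO over WT was -0.90 ± 0.37, which is 1.86-fold lower, with an edgeR adjusted p of 0.504. The highest KO soma library (25, 5.60 CPM) lay above the lowest WT soma library (26, 5.43 CPM) when scaled by library totals. After TMM scaling the same libraries were at 5.52 and 5.54 CPM, so that the groups met without overlapping, as they did for 3.13% of all genes tested. In growth cones Camk2n2 differed by -0.15 ± 0.15 (edgeR adjusted p = 0.9995), and the interaction was 0.73 ± 0.29 (edgeR adjusted p = 0.565). Interneuron markers, summed, separated the same soma groups (116 to 187 CPM in WT, 383 to 530 in KO), although only 1 of the 8 tested was called higher in KO, and their part in the value was not tested.

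The other soma values were closer to 0. Pkia was 0.17 ± 0.08 higher in KO on the log2 scale (edgeR adjusted p = 0.629) and Pkig 0.24 ± 0.14 (adjusted p = 0.786), with overlapping libraries after TMM scaling. Ppp1r1a was at -0.17 ± 0.12 (adjusted p = 0.866), Ppp1r1b at -0.30 ± 0.33 (adjusted p = 0.966) and Camk2n1 at -0.03 ± 0.31 (adjusted p = 0.997). Pkib was at 0.22 ± 1.45 (adjusted p = 0.997), with 0 counts in 3 WT libraries.

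In growth cones every member had an edgeR adjusted p of 0.9995, and in no member were the libraries of the 2 genotypes separated, as they were for 0.480% of all genes tested. Pkib had the lowest value, -1.12 ± 0.59, with WT at 38.7 ± 37.9 CPM and KO at 17.6 ± 7.01. Without WT library 8 the value was -0.31 ± 0.50. Camk2n1 was at -0.31 ± 0.24, Pkia at 0.29 ± 0.21, Ppp1r1b at -0.11 ± 0.31, Pkig at -0.07 ± 0.16 and Ppp1r1a at -0.03 ± 0.16. Ppp1r1c was at -0.57 ± 2.03.

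**Figure D5:**
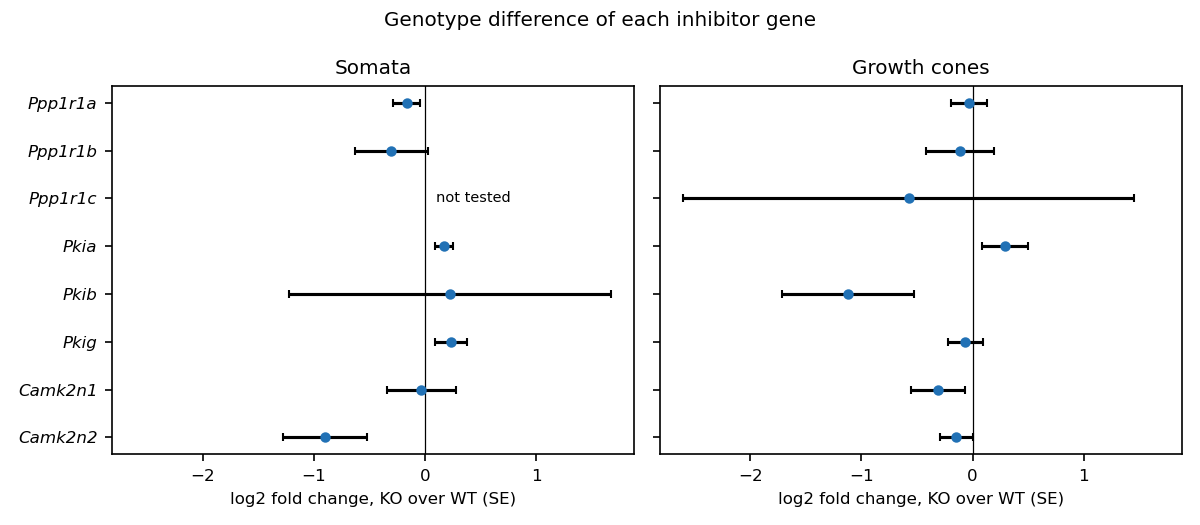
Points give the log2 fold change of KO over WT for each gene, with the SE as error bars, in somata (left) and growth cones (right). Camk2n2 (-0.90) is farthest from 0 in somata and Pkib (-1.12) in growth cones, the longest bar in growth cones is that of Ppp1r1c (-0.57 ± 2.03), and none passed the threshold.

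For the interaction, the other members were at 0.12 ± 0.21 (Ppp1r1a), 0.12 ± 0.23 (Pkia), -0.31 ± 0.22 (Pkig), -0.31 ± 0.38 (Camk2n1), -1.39 ± 1.55 (Pkib) and 2.34 ± 2.50 (Ppp1r1c), with edgeR adjusted p = 0.953 for Pkig and 0.9999 for the rest. No other gene of the pathway lists passed between genotypes in growth cones (0 of 43 tested, smallest edgeR adjusted p = 0.9995) or in the interaction (0 of 43, smallest 0.344). In somata 1 of 42 passed: Rcan3, of the calcineurin inhibitor family, fell from 82.0 ± 14.9 CPM in WT to 26.8 ± 10.3 in KO (log2 fold change -1.63 ± 0.29, edgeR adjusted p = 0.0268). This call was lost under 9 of 18 alternatives, among them without WT library 14, 22 or 26 or KO library 14, 25 or 26, with the value between -1.93 and -1.41 and the adjusted p up to 0.107. In growth cones Rcan3 was at 68.7 ± 20.6 CPM in WT and 38.9 ± 21.4 in KO.

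The genes most like each member across all 20 libraries were sought among the 11340 genes whose mean level reached 5 CPM, by Pearson r of log2 CPM. Those values mostly restate the compartment difference, which the libraries share with their tissue and experiment, and carry no test. Ppp1r1a was most like Fth1 (r = 0.998), the ferritin heavy chain gene, and the ribosomal protein gene Rpl12 (0.997), and Pkig most like Ntan1 (0.996) and the ferritin light chain gene Ftl1 (0.994). Camk2n2 was nearest to Trappc6b (0.991) and Ap3s1 (0.990), genes of membrane traffic, and Camk2n1 to Capns1 (0.987) and Gm12407 (0.983). Pkia ran with Sept11 (0.970) and Gng2 (0.970), Pkib with Vamp8 (0.919) and Rab13 (0.908). For Ppp1r1b, Fgfrl1 had an r of 0.835. Over the 10 soma libraries with each genotype's mean removed, other genes led: Atp5j2 (0.971) and Pfdn1 (0.965) for Ppp1r1a, Ccdc6 (0.960) and Igsf3 (0.944) for Ppp1r1b, Riok3 (0.965) and Far2 (0.931) for Pkia, and Kcnh1 (0.943) and Ipo7 (0.907) for Pkib. For Pkig they were Ppp1r15a (0.917) and 2310009A05Rik (0.912), for Camk2n1 Ears2 (0.977) and Rfc1 (0.928), and for Camk2n2 Zcchc24 (0.958) and Mtss1l (0.941). Each is among the highest values of a search over 11340 genes in only 10 libraries. Such a search can give a high r by chance, so these values carry no test either. Pkib also had 0 counts in 3 WT soma libraries.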

How the data were processed

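The authors deposited 1 table of raw counts per gene, with a column per library and the columns of featureCounts per the file headers. The submitters' processing notes name Trimmomatic 0.39, STAR 2.7.1a, featureCounts 1.5.0 and the build GRCm39. Starts and ends in the table equal those of GENCODE M21 (GRCm38) for 97.9% of the 55487 genes, so coordinates are given in GRCm38. Use of strand and of reads with several positions is not given in the sources used here. The deposited gene length, the bases of all exons of a gene, was used for RPKM.

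Groups came from the titles. Levels are CPM of the library total. Differences were fitted with edgeR 4.0.16 in R 4.3.3 on the whole table (filterByExpr with a minimum count of 10, TMM scaling, quasi-likelihood test, Benjamini-Hochberg adjustment over all genes tested, FDR 0.05), and SE was derived from the F statistic. All adjusted p-values are edgeR's unless DESeq2 is named. Only the groups compared entered a fit, and all 20 libraries the interaction. Replicates differed by more than sampling noise (chi-square of at least 52.7 per degree of freedom), and none was merged. Nothing says that libraries came from separate animals, so p-values measure only the spread between libraries.

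The members, the pathway and marker lists and the alternatives were chosen with earlier results of these data known. The text names the 8 members, Bcl11b, up to 4 genes per list and comparison with the lowest p among those past the FDR, and the 2 genes with the highest r per member. For Ppp1r1b, 1 of the 2 is not reported here, and that gene was also left out of its marker list. Calls of the members between compartments are not used, since that contrast was known when they were chosen. Alternatives were DESeq2 1.42.0, other scalings, no count filter, all libraries in 1 fit, detected genes as a covariate, the experiment number as a block, each library left out and, added later, another gene length for shares, sums and ratios. The code was tested on simulated data.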

Additional observations from a re-analysis of the deposited data

Results flagged for a closer look

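In 6 of the 31 groups of 5 libraries examined (8 genes in 4 groups, less 1 with too few counts), 1 library stood apart from the other 4 by Dixon's criterion. Chance gives about 1 such group in 20 where values are normally distributed. That rate does not hold for groups with libraries at 0, which were Ppp1r1c and Pkib in WT somata and Ppp1r1c in KO growth cones among those flagged. Ppp1r1c was at 0.316 CPM in WT soma library 26, which is 6 counts, with 0 in the other 4, and at 10.9 CPM in KO growth cone library 11, with the others between 0 and 2.16. Pkia was at 1408 CPM in KO soma library 26, with the others between 1182 and 1236. Pkib was at 3.14 CPM in WT soma library 22, with the others between 0 and 0.897, and at 104 CPM in WT growth cone library 8, with the others between 11.02 and 36.2. Camk2n1 was at 136 CPM in KO growth cone library 7, with the others between 248 and 279.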

How the results depend on the processing

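The number of members past the threshold stayed at 0 under all 18 alternatives for KO against WT somata, all 18 for growth cones and all 27 for the interaction. The fold changes of the 7 members between compartments kept their direction under every alternative run in each genotype. The direction of every called list gene named in the text held under its alternatives. Arpp19 in WT (adjusted p = 0.0509) and Ppp1cb (0.0511) and Prkar1b (0.0740) in KO lost their call with another scaling. So did Ppp1ca, Ppp1r14c and Pde1a in WT and Pde1a in KO, which were also lost with a library left out. Without the count filter, Gnas and Pde1a in WT and Prkaca in KO lost theirs. Ppp3r1 in WT (0.0641) lost its call with all 20 libraries in the fit. Camk2n2 in somata ranged from -1.10 to -0.79 (adjusted p = 0.0661 to 0.729). Over all genes, KO against WT somata gave 109 calls, against 561 by DESeq2, 30 with all 20 libraries and 34 with the block. Growth cones gave 0, against 116 by DESeq2 and 7 with all 20 libraries, and the interaction 7, against 490 by DESeq2, 4 with the covariate and 0 with the block. The causes were not tested. With the experiment number as a replicate block, 0 members passed in somata, 0 in growth cones and 0 in the interaction. Whether the numbers pair the libraries was not settled. Same-numbered deviations correlated weakly, at 0.0160 to 0.101 in growth cones and -0.0140 to 0.107 in somata. The WT and KO libraries of experiments 7, 10, 11, 14 and 25 each correlated best with one another, whereas those of 8, 9, 22 and 26 did not. Ppp1r1c, and Pkib in somata, rest on low counts in which single libraries move the value, and which did not follow depth: Pkib had 17 counts in the shallowest WT soma library and 0 in the deepest. With the principal-transcript length, chosen after seeing the data, the PKI sum and its ratio to PKA RNA separated the compartments. With all exons the ratio overlapped in both genotypes. The sum then overlapped in KO (341 to 400 RPKM in somata, 355 to 503 in growth cones) but not in WT (302 to 333 and 373 to 477).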
